A study of Bos taurus with 9 samples.

Results

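The rectal transcriptome of the non-shedding steers (NS) was described from 4 libraries, 1 per steer, of the 9 libraries of rectal tissue in the study. The members were chosen by their labels, as the steers negative for E. coli O157, and are named by their steer numbers, 108, 152, 165 and 242. The other 5 steers were super-shedders (SS), which excrete this bacterium in feces at high numbers, and they were not used here. All of the steers were British x Continental crossbreds kept on a barley-grain finishing diet in a commercial feedlot, and the NS were pen-mates of the SS. The sources used here do not give their age. From each carcass, 2 biopsies of 2 cm2 were cut 3 to 5 cm proximal to the recto-anal junction (RAJ) and frozen within 10 min of death, and total RNA was taken from about 100 mg of the powdered tissue. The sources used here record no treatment of the NS, which were of a mixed breed. There was no repeat library from any steer, so a difference between steers includes animal, biopsy and library.

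The rectal wall of cattle is lined with columnar epithelium made of absorptive colonocytes, mucus-secreting goblet cells and a few hormone-secreting enteroendocrine cells. Under it lie the lamina propria, with plasma cells that make IgA, and lymphoid follicles, which are dense near the RAJ, and around these lie fibroblasts, blood vessels and layers of smooth muscle. E. coli O157:H7 attaches preferentially near the RAJ, where it raises actin pedestals under its point of contact with the epithelium.

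Gene levels are given in CPM, the reads on a gene scaled to 1000000 reads on all genes of that library. CPM are not corrected for gene length, so between genes they compare shares of reads and not numbers of transcripts. Totals of reads on genes, which are only part of the mapped reads, lay between 8580654 in steer 242 and 12278503 in steer 108. In these libraries 1 read was worth 0.0814 to 0.117 CPM. A read was found on 18151 ± 212 genes per steer (SD, n = 4), on 16288 genes in every steer and on 20362 of the 24616 listed genes in at least 1 steer. Of these identifiers 2052 could be paired with a gene symbol, and they held 47.8 ± 3.94% of the reads (SD, n = 4). Symbols came from 2 of the study's tables, 1 of which was held only in part, mainly its genes with the highest levels. Low genes, including transcription factors and receptors, could therefore mostly not be named, and the genes missing from the lists below reflect the part of the table used here.

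One library stood apart from the others. Steer 242 had the highest value for 46.3% of the 14513 genes with a mean of at least 1 CPM, and steers 108, 152 and 165 for 20.8%, 17.3% and 15.7%. The lowest value was in steer 152 for 34.4% of these genes, in steer 242 for 31.0%, in steer 108 for 18.0% and in steer 165 for 16.6%. After TMM scaling, which removes shifts that most genes share, steer 242 was highest for 35.9% and steer 152 for 26.6%. This scaling lowered the values of steer 242 by 0.14 on the log2 scale and raised those of steer 152 by 0.11. Among the gene lists described below, those of epithelium and smooth muscle were low in steer 242 and those of lymphocytes, fat and ribosomes were high. Values are therefore mostly given steer by steer, and the span of a list, its highest minus its lowest level, is also given without steer 242 where that moved it by more than the SD over the steers.

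A few genes took much of each library. The 10 highest genes held 12.2 ± 1.16% of the reads (SD, n = 4), the 100 highest 24.3 ± 2.47% and the 1000 highest 52.6 ± 2.81%, and 861 genes together held 50% of the mean library. Without steer 242 the share of the 10 highest was 12.7%. Of these 10 genes 6 had no symbol, among them the highest of all, ENSBTAG00000043570, with 2.90 ± 0.37% of the reads. Counting error was small against these shares, with a 95% Wilson half-width of at most 0.033 percentage points, which covers counting error only because reads made by PCR are not independent molecules.

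**Figure D1:**
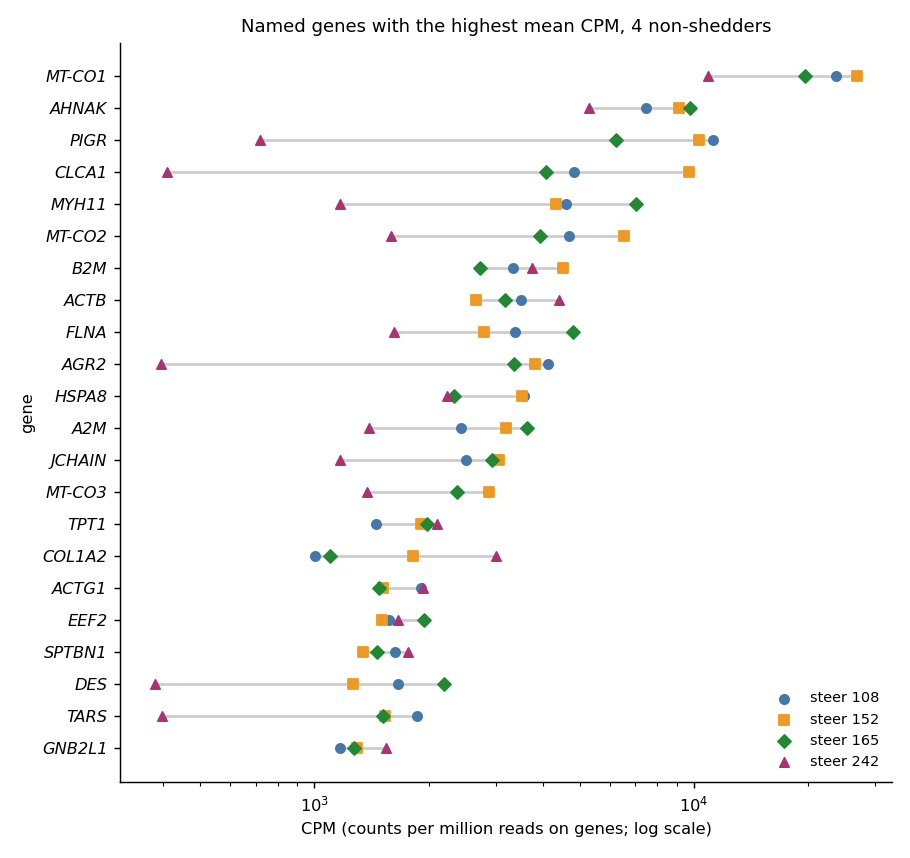
The 22 genes described in the text from among the 25 named genes with the highest mean level, with CPM on a log axis, 1 point per steer and a grey line from the lowest to the highest steer. Points of steer 242 lie far to the left of the others for PIGR, CLCA1, AGR2, MYH11, DES and TARS, and to the right of them for COL1A2.

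The highest named gene was MT-CO1, a mitochondrially encoded subunit of cytochrome c oxidase, with 23635, 26925, 19587 and 10852 CPM in steers 108, 152, 165 and 242. All per-steer values below are in this order of steers. MT-CO2 and MT-CO3, 2 other subunits of this enzyme, were at 4692, 6548, 3936 and 1595 CPM and 2857, 2882, 2377 and 1377 CPM. Steer 242 was lowest for all 3 of these genes.

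The highest named nuclear gene was AHNAK, which encodes a very large scaffold protein under the plasma membrane, at 7467, 9142, 9761 and 5279.9 CPM. It was followed by PIGR, the receptor that carries dimeric IgA across the epithelium into the lumen, at 11237, 10297, 6217 and 720.5 CPM. PIGR in steer 242 was 15.6-fold below steer 108, and its mean without steer 242 was 9250.3 ± 2669 CPM (SD, n = 3). CLCA1, a protein that goblet cells secrete into mucus, reached 4814, 9673, 4066 and 409.9 CPM, and AGR2, a protein disulfide isomerase needed for mucin folding, reached 4133, 3818, 3348 and 395 CPM. All 3 are genes of the epithelium, and steer 242 was far below the other steers for each.

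Genes of muscle, matrix and immunity were also among the 25 highest. MYH11, the smooth muscle myosin heavy chain, was at 4598, 4332, 7021 and 1167 CPM, FLNA, which crosslinks actin filaments, was at 3376, 2800.4, 4805 and 1622 CPM, and desmin (DES), an intermediate filament protein, had a mean of 1707 ± 467 CPM (SD, n = 3) without steer 242 against 381 CPM in it. COL1A2, a chain of type I collagen, ran the other way, with 1005, 1821, 1099.7 and 3009 CPM. B2M, the light chain of MHC class I, had a mean of 3584 ± 755 CPM (SD, n = 4) and JCHAIN, which joins IgA monomers, one of 2419.7 ± 868 CPM (SD, n = 4). A2M, a protease inhibitor, averaged 2659.9 ± 978 CPM (SD, n = 4), and the chaperone HSPA8 2917 ± 730.4 CPM (SD, n = 4). TARS, a tRNA synthetase for threonine, was at 1864, 1537, 1516 and 398 CPM, with steer 242 again far below the others.

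Of the 25 highest named genes, 6 had a coefficient of variation (CV, SD divided by mean) under 20%. Among them were EEF2, SPTBN1, GNB2L1, ACTG1 and TPT1, which serve translation and the cytoskeleton, except for the many-sided TPT1. EEF2, the factor that moves the ribosome along the mRNA, was at 1576, 1502, 1944 and 1659.8 CPM, a CV of 11.6%. All 25 differed between steers by more than counting error in the test described next. Steer 242 was lowest for 15 of the 25 and highest for 8, where over all genes it was lowest for 31.0% and highest for 46.3%. Of the 25, 23 stayed among the 25 highest without it.

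Whether the steers differed by more than the counting error of the reads was tested gene by gene with an index of dispersion, a chi-square test on 3 degrees of freedom with Benjamini-Hochberg adjustment at 0.05. It compares these libraries and says nothing of a condition. Of 14513 genes, 12284 (84.6%) differed beyond counting error, and 1958 of the named genes were among them. Without steer 242 it was 9157 of 14337 genes (63.9%). Counting error alone is the least spread that libraries can have, so the test serves to mark genes whose spread could not be told from it, and the remaining spread includes animal, biopsy and library.

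**Figure D2:**
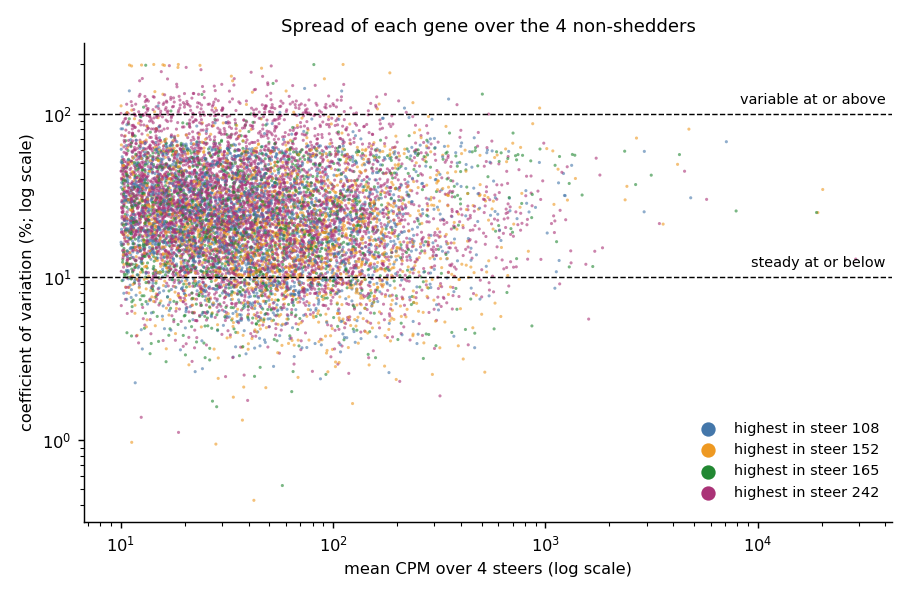
Coefficient of variation over the 4 steers against mean CPM for the 10378 genes with a mean of at least 10 CPM, both on log axes, each point a gene in the colour of its highest steer. Of these genes 1455 lie at or below the lower line at 10% and 236 at or above the upper line at 100%, most of the latter in the colour of steer 242.

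Among the 10378 genes with a mean of at least 10 CPM the median CV was 22.7%, and 20.1% for the named ones. Steady genes, with a CV of 10% or less, numbered 1455 (14.0%), of which 397 were named. Variable genes, with a CV of 100% or more, numbered 236 (2.27%), of which 38 were named. Without steer 242 the median CV was 13.8%, 3322 of 10124 genes were steady (32.8%) and 51 were variable (0.504%). Of the 1455 steady genes 1276 were also steady without steer 242, but of the 236 variable genes only 40 were still variable.

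The 15 steadiest named genes had CVs from 1.68% to 2.89%. They were chosen for this low CV, so that 14 of them did not differ beyond counting error is no separate result. AGPS, an enzyme of ether lipid synthesis in peroxisomes, was at 124, 125, 120.4 and 124 CPM, and PPP6R3, a regulatory subunit of protein phosphatase 6, at 317, 314, 316 and 327 CPM. COPE and VTI1B, which serve vesicle traffic between endoplasmic reticulum, Golgi and endosomes, had means of 63.8 ± 1.26 CPM (SD, n = 4) and 48.1 ± 1.01 CPM (SD, n = 4). YTHDC1, a reader of methylated RNA, NCBP1, which binds the cap of mRNA, and API5, an inhibitor of apoptosis, averaged 198 ± 4.66 CPM (SD, n = 4), 148 ± 4.26 CPM (SD, n = 4) and 87.1 ± 2.07 CPM (SD, n = 4).

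RPL6, a protein of the large ribosomal subunit, and EIF3I, a subunit of a translation initiation factor, had means of 206 ± 4.72 CPM (SD, n = 4) and 79.8 ± 2.11 CPM (SD, n = 4). SMEK2, RFWD2, MRFAP1, CNIH1 and ETFB were also among the steadiest genes, with means between 52.4 and 293 CPM. All 15 were still steady without steer 242, although only 2 of them were then among the 15 steadiest.

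**Figure D3:**
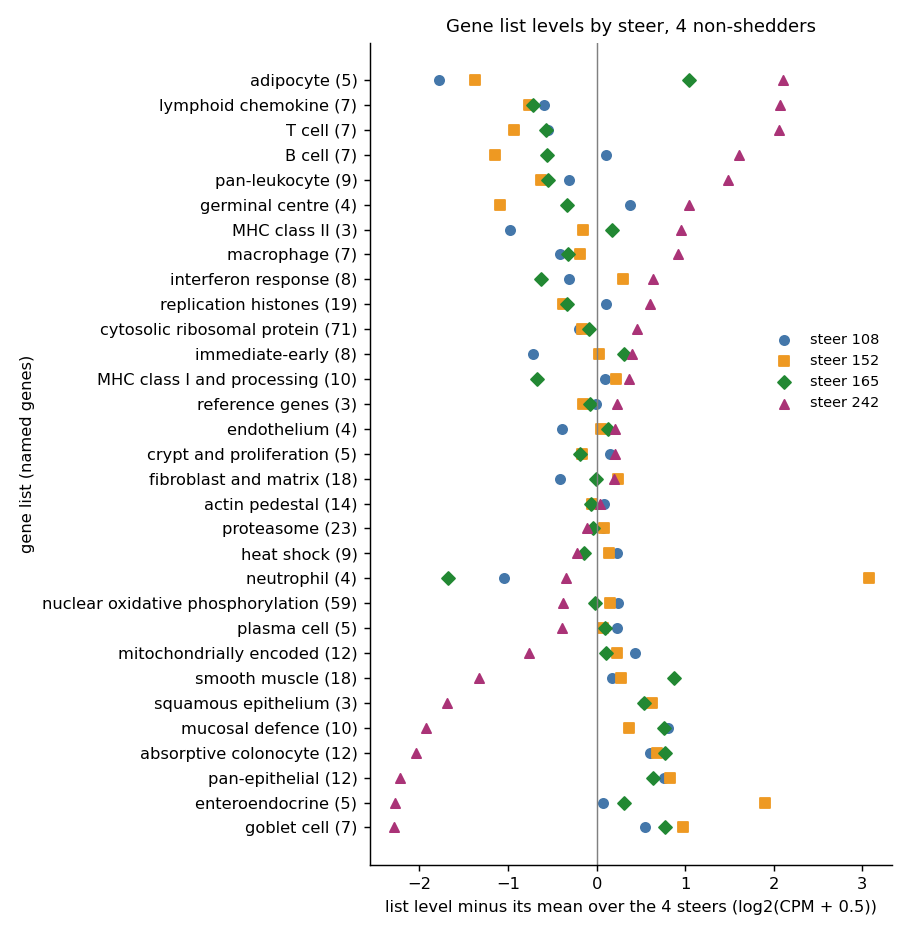
Level of each gene list in each steer minus the mean of the 4 steers, on the log2(CPM + 0.5) scale, with the number of named genes in brackets and lists ordered by steer 242 against the other 3 steers. Steer 242 lies at the right end for lymphocyte, leukocyte, fat and ribosomal lists and at the left end for epithelial and smooth muscle lists, and steer 152 is at the right end of the neutrophil list.

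To describe the tissue, 34 lists of genes known for a cell type or function were used. The level of a list is the mean of log2(CPM + 0.5) over its named genes, and 31 lists had 2 or more named genes. In 20 of these 31 the steers spanned at least 1 on this scale, and in 7 of 31 without steer 242. In bulk tissue a smaller share of a cell type and less RNA per cell of that type cannot be told apart. No gene of the lists for enteric neurons and glia and for sensing of E. coli products could be named, so these were not analysed here.

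Epithelial genes were close to each other in steers 108, 152 and 165 and much lower in steer 242. The 12 named of 17 pan-epithelial genes had levels of 9.23, 9.29, 9.10 and 6.25, a span of 3.05 on the log2 scale and of 0.19 without steer 242, and all 12 were lowest in steer 242, where 31.0% of all genes were lowest. They held 1.75, 1.69, 1.21 and 0.15% of the reads, a mean of 1.2 ± 0.741% (SD, n = 4) or, without steer 242, of 1.55 ± 0.297% (SD, n = 3). EPCAM, an adhesion molecule found on nearly all epithelial cells, was at 817, 1195, 951 and 92.2 CPM. The gap was similar for CDH1 (E-cadherin), which joins epithelial cells to each other, at 409, 449, 398 and 56.4 CPM.

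The keratins of simple epithelium showed the same order of size. KRT19 was at 1371, 1569, 1249.6 and 143 CPM, KRT8 at 786, 637, 606 and 87.5 CPM and its partner KRT18 at 321, 279.6, 276 and 29.4 CPM. For all 3 the steers 108, 152 and 165 lay within a CV of 14.3%, the highest of the 3, while steer 242 was 8.99- to 10.9-fold below the highest steer. Desmosome genes DSP and DSG2, which anchor keratin filaments between cells, had 891, 571, 677 and 106 CPM and 502, 608, 631 and 65.7 CPM. The smallest gap among the 12 was that of F11R, a tight junction protein also present on platelets and leukocytes, at 191, 305, 239 and 73.9 CPM.

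Absorptive colonocytes take up salt, water and short-chain fatty acids, and 12 of 16 listed genes were named. Their levels were 8.27, 8.35, 8.44 and 5.63, with all 12 lowest in steer 242, against 31.0% of all genes. SLC26A3, the chloride-bicarbonate exchanger of the surface, was at 483, 553, 766 and 72.6 CPM, and CDH17, a cadherin of intestinal epithelium, at 735, 1036, 727 and 98.5 CPM. Carbonic anhydrases CA1, CA2 and CA4 were at 498, 527, 318 and 48.4 CPM, 693, 368, 453 and 82.6 CPM and 48.5, 105, 88.97 and 8.86 CPM. LYPD8, which keeps flagellated bacteria away from the colonic surface, was at 976, 1317, 1354 and 123 CPM. It took the most reads of the list. On the log2 scale the list spanned 2.81, and 0.17 without steer 242.

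Fatty acid binding protein FABP1, at 436, 234, 382 and 54.5 CPM, was highest in steer 108. PCK1, the rate-limiting enzyme of gluconeogenesis, was highest in steer 165, at 221, 222, 550.1 and 112 CPM. GUCA2A, the precursor of guanylin, which regulates salt and water secretion, was at 96.02, 144, 159.9 and 21.8 CPM. The highest steer thus changed from gene to gene among 108, 152 and 165, while the lowest did not.

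Goblet cell genes took a large share of the reads. The 7 named of 14 genes held 1.08, 1.62, 1.01 and 0.114% of the libraries, most of it CLCA1 and AGR2, and their level was 9.15, 9.59, 9.39 and 6.32. All 7 were lowest in steer 242 and 5 were highest in steer 152, against 31.0% and 17.3% of all genes. REG4, a secreted lectin of goblet and endocrine cells, was at 939, 1534, 1415 and 169 CPM, and SPINK4, a protease inhibitor, at 468, 549, 756 and 93.5 CPM. TFF3, the trefoil peptide of intestinal mucus, was at 219.6, 260.3, 225 and 33.6 CPM and HEPACAM2 at 188, 267, 260.1 and 27.3 CPM. Leaving out steer 242 lowered the span from 3.27 to 0.44 on the log2 scale.

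Enteroendocrine genes were led by CHGA (chromogranin A), a protein of hormone granules, at 952, 705, 924 and 104 CPM. GCG, the glucagon precursor that L cells process to GLP-1, was at 283, 652, 170.3 and 19.2 CPM, and PYY, a peptide hormone of the same cells, at 165, 307, 411 and 28.1 CPM. SST (somatostatin) was lower, at 27.8, 44.5, 19.1 and 2.45 CPM. All 4 were lowest in steer 242, against 31.0% of all genes. Steer 152 was highest for GCG and SST, but steer 108 for CHGA and steer 165 for PYY. CCK (cholecystokinin), a hormone known mainly from the small intestine, stood out with 1.06, 177, 3.097 and 2.91 CPM, that is 1845 reads in steer 152 and 13 to 33 reads in the other 3 steers.

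CCK (UMD3.1, chromosome 22, 15190717 to 15196325) had the highest CV of all named genes, 190%. The 95% Poisson interval of its level was 169 to 185 CPM in steer 152 and 0.564 to 1.81 CPM in steer 108. CCK came to have a name through the study's list of 58 genes that differed between SS and NS, which was chosen on these samples, and steer 152 alone brought its mean over 10 CPM. The span of the list was 4.17 on the log2 scale and 1.83 without steer 242, and 2.58 without steer 152. None of the other enteroendocrine genes had steer 152 apart from the rest in this way.

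Genes of dividing cells went both ways. The 5 named of 14 genes of the crypt and proliferation list had levels of 6.96, 6.64, 6.63 and 7.02, a span of 0.39 on the log2 scale or, with the median over members, of 0.78, and the highest steer was 242 as deposited but 108 after either scaling. PCNA, the clamp of DNA polymerase, was at 117, 96.9, 87.7 and 151 CPM and STMN1, a microtubule regulator, at 135, 88.04, 82.4 and 172 CPM, both highest in steer 242. MYB, a transcription factor of crypt progenitors and of immature blood cells, was lowest in steer 242, at 210.1, 168, 195 and 80.5 CPM. MKI67, TOP2A and LGR5 were among the genes without a symbol, so cycling cells and stem cells are poorly covered here.

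Only 3 of 11 genes of squamous epithelium, which lines the anal side of the RAJ, were named. COL17A1, a hemidesmosome collagen of basal cells, was at 47.5, 51.7, 82.9 and 17.6 CPM, and EVPL (envoplakin) at 8.88, 9.68, 13.2 and 2.91 CPM. S100A2 was at 177, 182, 68.7 and 12.1 CPM, and all 3 were lowest in steer 242, against 31.0% of all genes. The keratins that define this epithelium could not be named, and 2 of the 3 genes came from the study's list of genes that differed. On the log2 scale the list spanned 2.32, and 0.10 without steer 242.

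Smooth muscle genes had another order of steers, with 165 at the top. All 18 genes of the list were named, and 17 were highest in steer 165, where 15.7% of all genes were highest. All 18 were lowest in steer 242, against 31.0% of all genes. Both counts were the same after TMM and median-of-ratios scaling. Levels of the list were 8.87, 8.97, 9.57 and 7.36, and it held 1.64, 1.63, 2.49 and 0.538% of the reads. The exception was ACTA2, the smooth muscle actin that vessels and myofibroblasts also express, which was highest in steer 152, at 492, 969, 896 and 268 CPM.

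**Figure D4:**
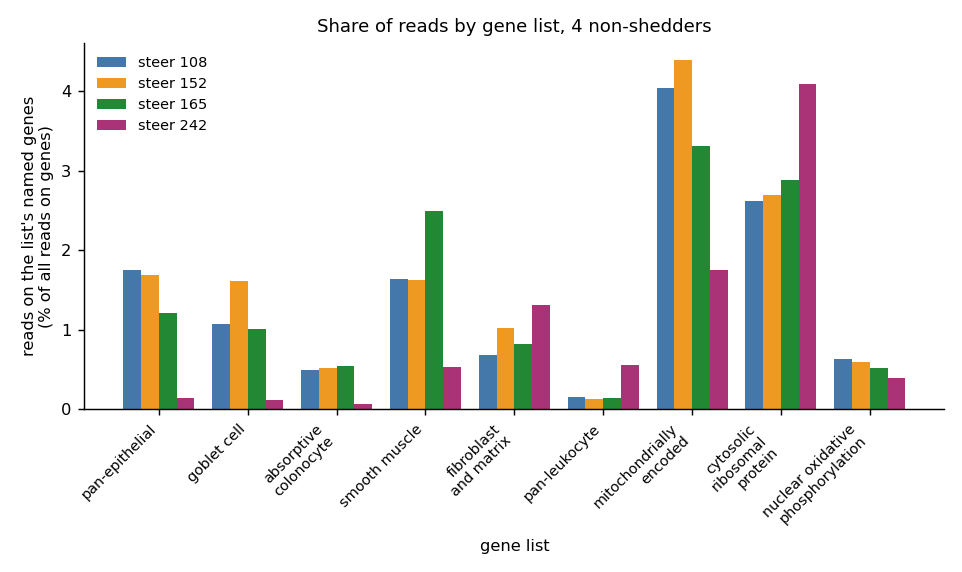
Reads on the named genes of 9 lists as a percentage of all reads on genes, 1 bar per steer, with the axis from 0. Epithelial and goblet cell bars nearly vanish in steer 242, the smooth muscle bar is tallest in steer 165, and the ribosomal protein bar is tallest in steer 242.

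Contractile genes differed most between steers 165 and 242. ACTG2, the actin of visceral smooth muscle, was at 1267, 1432, 1710.4 and 251 CPM, TAGLN (transgelin) at 864, 945, 1330.3 and 271 CPM and CNN1 (calponin) at 540.3, 669, 987 and 157 CPM. The intermediate filament gene DES was at 1660.5, 1266, 2196 and 381 CPM. Ratios of the highest to the lowest steer ran from 2.62 for CALD1 to 6.82 for ACTG2. Steers 108 and 152 were close to each other for most of the list, for example at 726 and 822 CPM of TPM1 and 734 and 857 CPM of TPM2, both tropomyosins. KCNMA1, the large-conductance potassium channel, and PLN (phospholamban), an inhibitor of the calcium pump, were at 105, 135, 162 and 31 CPM and 97, 129.7, 241 and 61.5 CPM.

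Without steer 242 the smooth muscle list spanned 0.70 on the log2 scale instead of 2.21, so steer 165 was above steers 108 and 152 by less than steer 242 was below them. RGS5, the only named gene of 4 listed for pericytes, was lowest in steer 242 as well, at 725, 859, 576 and 144 CPM. Like ACTA2, and unlike the other 17 genes of the muscle list, it was highest in steer 152.

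Matrix genes were not lower in steer 242 as a group. The 18 named of 20 genes of fibroblasts and matrix had levels of 8.04, 8.70, 8.45 and 8.66, with 9 highest in steer 242, 6 in steer 152 and 3 in steer 165, and 10 were lowest in steer 108. Over all genes 46.3% were highest in steer 242 and 18.0% lowest in steer 108, so the 9 of 18 were near the share of all genes. After either scaling 8 were highest in steer 242 and 8 in steer 152. Their share of the reads was 0.683, 1.03, 0.824 and 1.31%. Individual members went in opposite directions, so the level of the list hides its spread. The level spanned 0.65 on the log2 scale, and 0.25 without steer 108 or 0.26 with the median over members, when steer 165 was highest.

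Fibrillar collagen genes were highest in steer 242. COL1A1 was at 940.3, 1137, 843 and 2145 CPM, near COL1A2 in its pattern, and FBN1, the main protein of microfibrils, at 858, 1017, 932 and 1973 CPM. DCN (decorin), a small proteoglycan on collagen fibrils, was at 404, 1009, 688 and 1158 CPM. OGN (osteoglycin) of the same family had the highest CV of the list, 83.4%, at 38.4, 202, 109 and 398 CPM. THY1, a surface protein of fibroblasts that T cells of some species also carry, was at 61.4, 113, 80.5 and 246 CPM.

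Other matrix genes were lowest in steer 242. POSTN (periostin), which fibroblasts under the crypts secrete, was at 327, 386, 574 and 89.5 CPM, and VCAN (versican), a large proteoglycan, at 472, 519, 374 and 145 CPM. DPT (dermatopontin) was at 99.4, 120.3, 122 and 60.02 CPM. In between were genes with little spread, such as COL6A1 with a CV of 13.7%, FBLN1 with 17.7% and PDGFRA, the receptor that marks fibroblasts, with 19.6%. SPARC, LUM and MMP2 averaged 1097 ± 305 CPM (SD, n = 4), 424 ± 109.7 CPM (SD, n = 4) and 158 ± 31.9 CPM (SD, n = 4).

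Vessel genes also went in opposite directions, with CVs from 30.7% to 43.0%. The 4 named of 11 endothelial genes had levels of 5.81, 6.24, 6.32 and 6.40, and the highest steer was 242 as deposited but 165 after either scaling. The span of 0.59 on the log2 scale fell to 0.16 without steer 108. PECAM1, an adhesion molecule of endothelium and leukocytes, was at 109.8, 123, 126 and 205 CPM and CD34 at 25.2, 30.9, 34.3 and 56.99 CPM, both highest in steer 242. AQP1, a water channel of capillary endothelium, was lowest there, at 188, 283, 324 and 108 CPM. RAMP2, the partner of the adrenomedullin receptor, averaged 28.7 ± 8.81 CPM (SD, n = 4).

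Adipocyte genes divided the steers in pairs. The 5 named of 9 genes had levels of 3.76, 4.17, 6.58 and 7.65, so steers 165 and 242 were above steers 108 and 152, and 4 of the 5 were variable genes, where 2.27% of all genes were. FABP4, the fatty acid binding protein of fat cells, was at 1.87, 4.98, 136 and 295 CPM, from 23 and 52 reads in steers 108 and 152 to 1444 and 2533 reads in steers 165 and 242. THRSP, a regulator of lipogenesis, was at 1.95, 6.32, 32.2 and 132 CPM, and LPL (lipoprotein lipase) at 42.4, 43.6, 171 and 557 CPM. CD36, a fatty acid transporter that macrophages and capillaries also express, was at 13.7, 10.8, 99.8 and 211 CPM. The fifth gene, CFD (adipsin), did not follow, at 129.7, 101, 105 and 69.2 CPM, and was lowest in steer 242.

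Genes that nearly all leukocytes express were higher in steer 242 than in the other steers. All 9 genes of this list were named, and all 9 were highest in steer 242, where 46.3% of all genes were highest, also after either scaling. Levels were 7.24, 6.92, 7.01 and 9.03, and the list held 0.163, 0.136, 0.139 and 0.562% of the reads. Leaving out steer 242 lowered the span from 2.11 to 0.31 on the log2 scale. PTPRC (CD45), the phosphatase of all white blood cells, was at 309, 249, 259 and 1344 CPM, and CORO1A, an actin-binding protein of leukocytes, at 137, 80.9, 109 and 557 CPM. LCP1, LAPTM5 and RAC2 averaged 243 ± 49.5 CPM (SD, n = 3), 298 ± 22 CPM (SD, n = 3) and 74.3 ± 10.7 CPM (SD, n = 3) without steer 242, against 869, 1037 and 292 CPM in it. The same library had the lowest levels of the epithelial and smooth muscle lists above, and their part in the leukocyte and lymphocyte levels was not tested.

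T cell genes showed the same steer. Of 16 listed genes 7 were named, with levels of 3.76, 3.38, 3.75 and 6.37. All 7 were highest in steer 242, against 46.3% of all genes. Of the 7, 5 were named through the study's list of genes that differed between SS and NS, so their direction among NS is not independent of that choice. LEF1 and TCF7, transcription factors of naive T cells, were at 12.9, 9.197, 11.4 and 182 CPM and 22.6, 13.3, 16.5 and 142 CPM. THEMIS, needed for T cell development in the thymus, was at 9.04, 6.04, 6.66 and 88.3 CPM, and SH2D1A (SAP) and SIT1, both signalling adaptors, averaged 5.61 ± 1.35 CPM (SD, n = 3) and 9.28 ± 2.57 CPM (SD, n = 3) without steer 242 and stood at 47.4 and 71.0 CPM in it.

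The 2 T cell genes from outside that list were CD3G and CCL5. CD3G, which signals for the T cell receptor, was at 22.3, 19.5, 24.6 and 107 CPM, so the 3 other steers lay within 19.5 to 24.6 CPM. CCL5, a chemokine of effector T and NK cells, was at 16.7, 23.1, 26.5 and 30.6 CPM, with a CV of 24.3%. Both were highest in steer 242. The span of the list was 2.99 on the log2 scale and 0.39 without steer 242.

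All 7 named of 12 B cell genes got their names only through the study's list of genes that differed. Their direction among NS is therefore not independent of that choice. All 7 were highest in steer 242, against 46.3% of all genes. Their levels were 4.84, 3.59, 4.17 and 6.34, and 6 of the 7 were lowest in steer 152, against 34.4% of all genes. Their span was 2.75 on the log2 scale and 1.25 without steer 242. MS4A1 (CD20), the surface protein of mature B cells, was at 68, 31.3, 51.7 and 206 CPM. The receptor chains CD79A and CD79B were at 11.4, 4.98, 9.197 and 41.1 CPM and 15.96, 4.89, 9.38 and 63.5 CPM, and CD22, an inhibitory coreceptor, at 47.5, 14.7, 25.6 and 177 CPM. POU2AF1, a coactivator of immunoglobulin genes, was at 71.8, 23.2, 31.3 and 145 CPM. Steer 108 came second for all 7, and the one gene that was not lowest in steer 152 was CD180, a receptor that tunes Toll-like receptor signals, at 20.9, 15.9, 15.1 and 53.5 CPM.

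Germinal centres are the sites where B cells mutate their receptors. Of 9 listed genes 4 were named, all through the study's list, and their levels were 5.42, 3.96, 4.72 and 6.09. RGS13, a regulator of G-protein signalling typical of germinal centre B cells, was at 41.05, 14.8, 30.3 and 39.6 CPM, with steers 108 and 242 close together and steer 152 lowest. LRMP was at 98.1, 35.1, 53.7 and 196 CPM, and KLHL6, which B cells need for germinal centres to form, at 24.9, 9.101, 14.8 and 52.1 CPM. All 4 were lowest in steer 152 and 3 of 4 highest in steer 242, against 34.4% and 46.3% of all genes. The order of the steers by the level of the list, from 242 through 108 and 165 to 152, was that of the B cell list. Both lists were named only through the study's list, which was chosen on these samples, so this shared order is no separate result. On the log2 scale the list spanned 2.13, and 1.47 without steer 242 or 1.37 without steer 152.

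Chemokines and receptors that draw lymphocytes into lymphoid tissue had nearly the same mean level in steers 108, 152 and 165 and a higher one in steer 242. The 7 named of 8 genes had levels of 5.02, 4.84, 4.89 and 7.68, and 6 of them came from the study's list. CCL21, which lymphatic endothelium and stromal cells make, was at 27.7, 30.8, 24.02 and 366 CPM, and CCL19, its relative made by stromal cells, at 22.6, 22.1, 22.6 and 181 CPM. Their shared receptor CCR7, which naive T cells and mature dendritic cells carry, was at 14.2, 8.72, 13.7 and 160.4 CPM. LTB (lymphotoxin beta), which organizes follicles, was at 22.2, 11.98, 16.9 and 152 CPM.

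LAMP3, a protein of mature dendritic cells, was at 25, 17.8, 20.7 and 128 CPM, and CXCL13, the chemokine of B cell follicles, at 75.3, 72.9, 66.6 and 293 CPM. CXCL12, the only gene of the list from outside the study's list, was also highest in steer 242, at 89.4, 146, 99.4 and 250.1 CPM, but with a CV of 50.3% against 87.1% to 151% for the others. Without steer 242 the list spanned only 0.18 on the log2 scale.

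Plasma cell genes had their lowest level in steer 242, but in steer 152 with the median over members in place of the mean. The 5 named of 11 genes had levels of 7.43, 7.27, 7.30 and 6.82. None was highest in steer 242, against 46.3% of all genes. Their share of the reads was 0.303, 0.363, 0.347 and 0.149% with 78.4% to 84.9% of that on JCHAIN. JCHAIN was at 2506, 3061, 2944 and 1169 CPM, so steer 242 had less than each of the other 3 steers. XBP1, the transcription factor of secretory cells, was at 362, 446, 394 and 192 CPM and is also high in goblet cells. FKBP11, SEC11C and TXNDC5, which serve protein folding and export in the endoplasmic reticulum, had CVs of 10.7%, 17.5% and 22.8%. Leaving out steer 242 lowered the span from 0.62 to 0.16 on the log2 scale. Immunoglobulin genes could not be named.

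Macrophage genes were highest in steer 242 in 6 of 7 cases, also after either scaling, where 46.3% of all genes were highest as deposited. The 7 named of 13 genes had levels of 6.27, 6.50, 6.36 and 7.61, a span of 1.34 on the log2 scale and of 0.23 without steer 242. The complement genes C1QA, C1QB and C1QC, which tissue macrophages make together, were at 90, 122, 103 and 303 CPM, 81.3, 123, 102 and 282 CPM and 60.2, 66.3, 66.9 and 224 CPM. AIF1, an actin-binding protein of macrophages, was at 14.7, 17.5, 15.3 and 45.5 CPM. The exception was CTSS (cathepsin S), a protease of antigen presentation, which was highest in steer 152, at 416, 686, 471 and 584 CPM.

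Neutrophil genes set steer 152 apart. Of 9 genes 4 were named, 3 of them through the study's list, with levels of 3.30, 7.42, 2.66 and 3.999. S100A8 and S100A9, the subunits of calprotectin that neutrophils hold in large amounts, lie close together on UMD3.1 chromosome 3, at 17146917 to 17147898 and at 17176216 to 17179005. S100A8 was at 0.977, 117, 0.657 and 13.98 CPM and S100A9 at 1.47, 112, 0.657 and 19.7 CPM. Steer 165 had 7 reads of each gene, with 95% Poisson intervals of 0.264 to 1.35 CPM, and steer 152 had 1220 and 1174 reads.

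Between these genes, from 17163819 to 17165262, lies S100A12, a relative of calprotectin, which was higher than both in every steer, at 24.3, 677, 9.85 and 27.97 CPM. Steer 242 held intermediate levels of S100A8 and S100A9, above steers 108 and 165. BPI, a protein that kills gram-negative bacteria and is made by neutrophils and by some epithelia, did not follow these genes, at 131, 93.98, 116 and 7.34 CPM, and was highest in steer 108 and lowest in steer 242. Because steer 152 alone carried the list, leaving it out lowered the span of the list from 4.75 to 1.34 on the log2 scale.

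MHC class I genes were led by B2M, at 3340.1, 4529, 2729 and 3739 CPM. All 10 genes of the list were named, 8 were lowest in steer 165, where 16.6% of all genes were lowest, and 7 after either scaling. The list spanned 1.04 on the log2 scale, and 0.28 without steer 165. TAP1, the peptide transporter, was at 169.97, 160.3, 97.7 and 244 CPM, and the immunoproteasome genes PSMB8 and PSMB9 at 163, 160.1, 99.01 and 223 CPM and 35.3, 34.8, 26.2 and 67.1 CPM. A gene that the study's table names HLA-B, a class I heavy chain, was at 598, 614, 27.6 and 677 CPM. Steer 165 was thus 24.5-fold below steer 242 for this gene, while the steers differed at most 2.56-fold for the other 9. Class I genes of cattle are a family of similar and highly variable copies, so the counts on this identifier are uncertain.

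MHC class II genes are expressed by antigen-presenting cells and B cells. All 3 named of 7 were highest in steer 242 and lowest in steer 108, against 46.3% and 18.0% of all genes. Their span of 1.93 on the log2 scale was 1.15 without steer 242 and 1.11 without steer 108, and 2.85 with the median over members. HLA-DRA was at 630.1, 896, 849.9 and 1508 CPM and HLA-DMB, which helps to load peptides, at 63.2, 76.4, 82.6 and 189 CPM. HLA-DQB1 was at 58.1, 190.3, 361 and 457 CPM, with the highest CV of the 3, 66.6%. It too belongs to a family of variable copies.

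Interferon response genes were lowest in steer 165 in 6 of 8 cases, also after either scaling, where 16.6% of all genes were lowest as deposited. Levels of the 8 named of 12 genes were 6.99, 7.60, 6.67 and 7.94. PARP14, an ADP-ribosyltransferase, averaged 248 ± 80.9 CPM (SD, n = 4). CXCL9, a chemokine that interferon gamma induces, was at 9.77, 20.8, 9.95 and 89.6 CPM, and UBD, a ubiquitin-like protein, at 107, 115, 83.1 and 378 CPM. IDO1, which breaks down tryptophan, differed from these in being highest in steer 152, at 148, 548, 93.8 and 232 CPM.

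Secreted and surface proteins of mucosal defence were mostly low in steer 242. It was lowest for 8 of 10 named identifiers, against 31.0% of all genes. The span of the list was 2.73 on the log2 scale and 0.43 without this steer. CFI, the protease that inactivates complement C3b, was at 249, 729, 329 and 52.6 CPM, highest in steer 152. C3, the central complement component, was at 709, 542, 194 and 166 CPM, highest in steer 108. WFDC2, a secreted protease inhibitor of epithelium, was at 168, 182, 254 and 27.6 CPM. LYZ (lysozyme) alone was highest in steer 242, at 51.1, 43.1, 50.5 and 116 CPM, and is made by macrophages too.

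PLA2G2A, a secreted phospholipase that kills gram-positive bacteria, carried 2 identifiers. ENSBTAG00000013039 was at 549.7, 38.7, 1427 and 1.63 CPM, and the 14 reads of steer 242 had a 95% Poisson interval of 0.892 to 2.74 CPM. No other list gene with more than 3 reads in each steer had so large a ratio of the highest to the lowest steer. ENSBTAG00000005759 (UMD3.1, chromosome 2, 133289294 to 133295334) was at 141, 44.3, 94.5 and 50.6 CPM. If these identifiers are copies of 1 gene, reads may have been shared between them, so both levels are uncertain.

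Genes of the actin pedestal, with which attaching E. coli rearrange the cytoskeleton of the host cell, were among the most even lists. The 14 named of 16 genes had levels of 7.95, 7.82, 7.81 and 7.91, a span of 0.14 or, with the median over members, of 0.36, and 0.413, 0.414, 0.404 and 0.417% of the reads. EZR (ezrin), which links actin to the membrane of microvilli, was at 496, 612, 493 and 512 CPM, and ACTR2 and ACTR3, the actin-related proteins of the ARP2/3 complex, had means of 378 ± 56.8 CPM (SD, n = 4) and 300.4 ± 35.1 CPM (SD, n = 4). The even level of the list hid members that went opposite ways. ARPC1A and CTTN (cortactin) were lowest in steer 242, at 129, 134, 123 and 58.97 CPM and 187, 173, 159 and 76.6 CPM, and ARPC1B, the form of this subunit that predominates in blood cells, was highest there, at 80.5, 66.7, 69.9 and 148 CPM.

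Immediate-early genes respond within minutes to stimulation and to handling of tissue. They were lowest in steer 108 in 7 of 8 cases, also after either scaling, where 18.0% of all genes were lowest as deposited. Levels were 6.02, 6.76, 7.04 and 7.13, highest in steer 242 as deposited but in steer 165 after scaling. The span was 1.11 on the log2 scale, and 0.37 without steer 108. FOS, a subunit of the AP-1 transcription factor, was at 30.3, 116, 191 and 256 CPM, and DUSP1, a phosphatase of MAP kinases, at 55.6, 107, 146 and 232 CPM. JUN and RHOB averaged 94.6 ± 34.1 CPM (SD, n = 4) and 130 ± 45.1 CPM (SD, n = 4). KLF4, a factor of differentiated colonic epithelium as well, was the exception, at 199, 195, 273 and 78.8 CPM, and was lowest in steer 242.

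Heat shock genes spanned 0.45 on the log2 scale, and 0.90 with the median over members in place of the mean, when steer 165 and not 242 was lowest. The 9 named of 10 had levels of 8.44, 8.35, 8.06 and 7.99, highest in steer 108 as deposited but in steer 152 after either scaling. HSPA5, the chaperone of the endoplasmic reticulum, had the highest CV among them, 33.7%, at 1061, 1020.5, 637 and 516 CPM. HSP90AA1 and HSP90AB1, the cytosolic HSP90 forms, averaged 1019 ± 189 CPM (SD, n = 4) and 685 ± 84.8 CPM (SD, n = 4). DNAJB1, which responds to heat and stress, was even, at 108, 116, 92.3 and 117 CPM.

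Of 4 genes that the study used as references for quantitative PCR, 3 were measured here, and 18S rRNA was not analysed. GAPDH, an enzyme of glycolysis, was at 412, 419, 397 and 362 CPM, a CV of 6.38%, which lay at percentile 4.63 of the CVs of genes with a mean of at least 10 CPM. ACTB (beta-actin) was at 3509, 2667, 3186 and 4406 CPM and RPLP0, a protein of the ribosomal stalk, at 1121, 1076, 1123 and 1663 CPM. Their CVs of 21.2% and 22.4% were close to the median of all genes. Without steer 242 the CVs of GAPDH, ACTB and RPLP0 were 2.7%, 13.6% and 2.38%. With all 4 steers they were 12.8%, 13.9% and 15.1% after TMM scaling, so the larger gap between GAPDH and the other 2 was found on the deposited scale. The list of these 3 spanned 0.38 on the log2 scale, 0.14 without steer 242, 0.14 after TMM scaling and 0.63 with the median over members.

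Ribosomal protein genes were highest in steer 242. Of 79 genes 71 were named, 69 were highest in steer 242 as deposited and 62 after either scaling. Over all genes 46.3% were highest in steer 242 as deposited and 35.9% after TMM scaling. They held 2.62, 2.7, 2.88 and 4.09% of the reads, and the levels were 7.83, 7.85, 7.94 and 8.48, a span of 0.65 and, without steer 242, of 0.11. RPS20 and RPL13A were at 279, 242, 291 and 633 CPM and 587, 516, 643 and 1255 CPM, with steer 242 above each of the other steers, while RPL6 was steady. Many ribosomal protein genes have processed pseudogenes, so the low values of some, such as RPL23A at 5.46, 13.8, 9.95 and 12.1 CPM, are uncertain.

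Genes of energy metabolism were mostly lowest in steer 242. Of 75 nuclear genes of oxidative phosphorylation 59 were named. Of these, 52 were lowest in steer 242 as deposited, where 31.0% of all genes were lowest, and 54 after either scaling. Levels were 6.10, 6.01, 5.85 and 5.48, a span of 0.62 and, without steer 242, of 0.26. UQCRFS1, the iron-sulfur subunit of complex III, was at 157, 162, 106 and 70.2 CPM and COX5A, a subunit of complex IV, at 137, 124, 86.8 and 67.7 CPM. NDUFA4 was steady, at 112, 103, 107 and 110.01 CPM, and did not differ beyond counting error.

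The 12 named of 13 mitochondrially encoded genes had levels of 10.19, 9.997, 9.87 and 8.995 and held 4.04, 4.39, 3.31 and 1.75% of the reads. In steer 242, 11 were lowest as deposited, against 31.0% of all genes, and all 12 after either scaling. MT-ND5, a subunit of complex I, was the exception as deposited, lowest in steer 152, at 997, 315, 489.99 and 329.9 CPM. Leaving out steer 242 took the span from 1.20 to 0.32 on the log2 scale. MT-CYB, of complex III, was at 1874, 1228, 1168 and 596 CPM and MT-ATP6, of the ATP synthase, at 1516, 1484, 1238 and 678 CPM.

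Proteasome genes held many steady genes as deposited. Of 32 genes 23 were named and 12 of these were steady, where 14.0% of all genes were steady, and the median CV was 9.86%. Levels were 6.52, 6.54, 6.41 and 6.34, a span of 0.19 as deposited but of 0.44 after TMM and 0.42 after median-of-ratios scaling. After either scaling 17 of the 23 were highest in steer 152 and 19 lowest in steer 242, against 11 and 13 as deposited. Over all genes 17.3% were highest in steer 152 as deposited and 26.6% after TMM scaling, and 31.0% lowest in steer 242 as deposited. PSMC2, an ATPase of the regulatory particle, and PSMB7, a catalytic subunit, did not differ beyond counting error, at 130.1, 133, 133 and 120.4 CPM and 75.3, 81.6, 75.5 and 75.2 CPM. PSMB5, the catalytic subunit that PSMB8 replaces in the immunoproteasome, was the least even, at 64.6, 68.4, 62.2 and 32.05 CPM, lowest in steer 242, where PSMB8 was highest.

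Replication-dependent histone genes have transcripts that lack a poly(A) tail and were kept in these rRNA-depleted libraries. Of the 18 named genes with a mean of at least 1 CPM, 17 were highest in steer 242, against 46.3% of all genes. The count was 16 after TMM and 17 after median-of-ratios scaling. Levels over all 19 named genes were 5.58, 5.09, 5.13 and 6.07. The span of the list was 0.98 on the log2 scale and 0.49 without steer 242. HIST1H4J was at 121, 73.2, 79.1 and 199 CPM and HIST1H1E, a linker histone, at 237, 173, 169.7 and 264 CPM. HIST1H2AK, the gene below 1 CPM, was at 0 reads in steers 108 and 152, where the limit that a count of 0 allows is 0.244 and 0.287 CPM, and at 1 read in the other 2. Histone genes are near-identical copies, so the split of reads among them is uncertain.

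**Figure D5:**
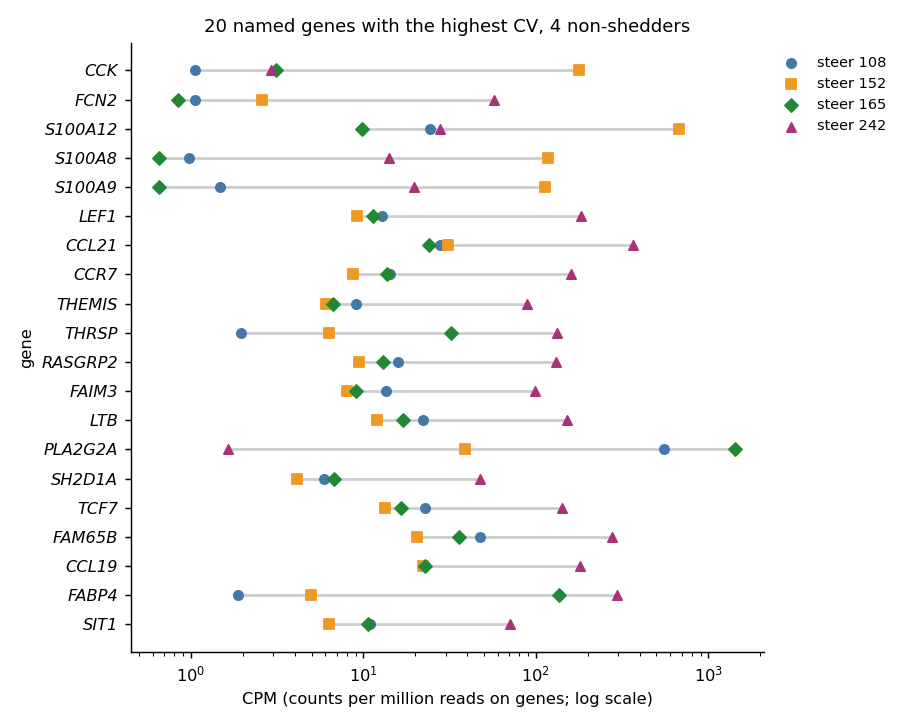
The 20 named genes with the highest coefficient of variation, highest at the top, with CPM on a log axis, 1 point per steer and a grey line from the lowest to the highest steer. In 15 genes the rightmost point is steer 242, in 4 it is steer 152 and in 1, PLA2G2A, it is steer 165.

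The 20 most variable named genes had CVs from 125% to 190%, and 17 of them came from the study's list of genes that differed, so their place here is not independent of that list. Steer 242 was highest for 15, steer 152 for 4 (CCK, S100A8, S100A9 and S100A12) and steer 165 for PLA2G2A. Without steer 242 only 7 of the 20 were still variable. These were the 4 genes of steer 152, PLA2G2A, FABP4 and THRSP.

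FCN2, a ficolin, which binds sugars on microbes and starts the lectin pathway of complement, was at 1.06, 2.59, 0.845 and 57.5 CPM. Its position in UMD3.1 is chromosome 11, 106822996 to 106831824, and its 9 to 27 reads in steers 165, 108 and 152 compare with 493 reads in steer 242. RASGRP2 and FAM65B, which act on small GTPases in lymphocytes and platelets, were at 15.9, 9.48, 13.04 and 131 CPM and 47.2, 20.3, 35.7 and 277 CPM. FAIM3, the receptor for IgM on B cells, was at 13.5, 8.05, 9.01 and 99.2 CPM.

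Over all 236 variable genes, named or not, steer 242 was highest for 192, steer 152 for 30 and steers 108 and 165 for 7 each. Of the 38 named ones steer 242 was highest for 33. Variable genes without steer 242 numbered 51, of which 9 were named, and the 2 not mentioned so far as variable there were CD36 and SPP1. SPP1 (osteopontin), a secreted phosphoprotein of macrophages and other cells that was singled out after its values were seen, was at 4.89, 71.8, 7.41 and 120.04 CPM. The part of the cell type makeup of each biopsy in the spread of any single gene was not tested.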

How the data were processed

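Stranded, rRNA-depleted total RNA libraries were mapped to UMD3.1 with TopHat2, and HTSeq and edgeR are also listed in the submitters' processing notes, with no role given. The authors deposited CPM per Ensembl gene, without scaling beyond the library total. The 4 NS columns were used and the 5 SS columns were not. All values were whole multiples of 1 read (tolerance 0.01 reads), so reads were recovered. Symbols came from 2 supplementary tables, by identifier, 1 of them held only in part and the other the study's list of 58 genes that differed between SS and NS, and coordinates from that list. The authors' FPKM values and fold changes were not used.

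Named genes were the 25 with the highest mean CPM, the 15 with the lowest and the 20 with the highest CV among named genes with a mean of at least 10 CPM, and the genes of 34 lists. A few of these genes are not reported here. These members and lists were chosen with earlier results of these data known. No test between groups of steers was made. The index of dispersion was checked on simulated data (14513 genes, 200 of them changed in 1 library, 20 draws per fold), where it recovered 73.5%, 91.5% and all of the genes changed 1.5-, 2- and 4-fold, with 4.69%, 4.95% and 5.17% false calls on average and at most 11.5% in a draw. Python 3.11.15 (numpy 2.4.6, pandas 2.3.3, scipy 1.17.1) and, for TMM scaling, R 4.3.3 with edgeR 4.0.16 were used. Filters, scalings, pseudocounts, thinning to 8580654 reads and leaving out each steer were tried as alternatives.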

Additional observations from a re-analysis of the deposited data

Results flagged for a closer look

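With 4 steers, a value was singled out where the gap between the highest or lowest steer and the next took more of the whole range than the 95% critical value of Dixon's ratio allows. Chance alone singles out about 1 in 20 sets of values. It was so for 8 of the 31 lists and for 47 of the 195 gene identifiers named in the report. Of these 55 cases 47 were values of steer 242, 6 of steer 152, 1 of steer 165 and 1 of steer 108, and they are not independent of each other, since many come from 1 library. The genes named include those chosen for a high CV and those of the study's list. Some, such as FCN2, CCK and S100A8, reached a mean of 10 CPM through the steer singled out. Most names in the T cell, lymphoid chemokine and squamous lists came from the study's list (5 of 7, 6 of 7 and 2 of 3). The lists were chosen with earlier results known, and some share members. Neither the count of genes nor that of lists can therefore be read against the rate by chance.

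Lists that were low in steer 242 were pan-epithelial (6.25 on the log2 scale), absorptive colonocyte (5.63), goblet cell (6.32), squamous epithelium (3.20) and mucosal defence (6.12). Lists that were high in steer 242 were T cell (6.37), lymphoid chemokine (7.68) and pan-leukocyte (9.03).

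Among lymphocyte genes, steer 242 was apart from the others with 182 CPM of LEF1, 142 of TCF7, 88.3 of THEMIS, 47.4 of SH2D1A, 71.0 of SIT1, 107 of CD3G, 53.5 of CD180, 99.2 of FAIM3, 277 of FAM65B and 131 of RASGRP2. Its chemokine and follicle genes with this pattern were CCL19 at 181 CPM, CCL21 at 366, CCR7 at 160.4, LTB at 152, LAMP3 at 128, CXCL13 at 293 and CXCL9 at 89.6. Its general leukocyte genes were PTPRC at 1344 CPM, CORO1A at 557, LAPTM5 at 1037, LCP1 at 869, RAC2 at 292 and ARPC1B at 148. Genes of macrophages and antigen presentation were AIF1 at 45.5 CPM, C1QA at 303, C1QC at 224, LYZ at 116, HLA-DMB at 189 and UBD at 378, and FCN2 was at 57.5 CPM.

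Steer 242 was also high for PECAM1 (205 CPM), FBN1 (1973 CPM), RPLP0 (1663 CPM) and RPS20 (633 CPM). It was low for CDH1 (56.4 CPM), KRT18 (29.4 CPM), ARPC1A (59.0 CPM), PSMB5 (32.0 CPM) and COPE (61.9 CPM), the last with a range of only a few CPM.

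Steer 152 was apart with 177 CPM of CCK, 677 of S100A12, 117 of S100A8 and 112 of S100A9, and within narrow ranges for EZR (612 CPM) and PSMB7 (81.6 CPM). Dixon's ratio takes no account of counting error, and PSMB7 did not differ between steers beyond it. Steer 165 was apart with 27.6 CPM of HLA-B, and steer 108 with 190.2 CPM of MRFAP1. MRFAP1 and COPE are among the 15 steadiest named genes, of which only 1 differed beyond counting error.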

How the results depend on the processing

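The share of reads on the 10 highest genes was 10.999% when the mitochondrially encoded genes were left out of the total. Genes detected per steer numbered 15153 at 0.5 CPM or more and 17888 after thinning to the smallest total. Steady genes numbered 732 and variable genes 82 at a mean of at least 50 CPM, and variable genes 496 at a mean of at least 1 CPM. Leaving out each steer in turn gave 1504 to 3322 steady genes, 51 to 299 variable genes and 7 to 20 lists that spanned at least 1 on the log2 scale, with the highest count of steady genes and the lowest of the other 2 without steer 242. Genes highest in steer 152 were 26.3% after median-of-ratios scaling and 26.6% after TMM scaling, and those highest in steer 242 were 36.6% and 35.9%. The count of genes beyond counting error stayed within 1.5 times of the main count under every alternative run. It ran from 9157 of 14337 genes tested without steer 242 to 12961 of 20362 with no filter. At a mean of at least 10 CPM it was 9399 of 10378, so these counts do not share a denominator. Of the 31 lists, TMM scaling left the highest steer as it was in 25 and the lowest in 28, and leaving out steer 242 moved the span of 18 by more than the SD over steers. Levels per gene length were not run, because no lengths for the deposited gene models were at hand. No paired analysis was possible because no second group was compared. With 1 library per steer, animal, biopsy and library cannot be told apart.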
